A study of Mus musculus with 9 samples.

Results

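Complement is a cascade of blood proteins that marks and lyses targets and calls in phagocytes, and 9 of its genes were followed here among the 23234 gene symbols measured by RNA sequencing. They were taken by symbol: C1qa, C1qb, C1qc, C3, Cfp, Cfb, C3ar1, C5ar1 and Cd55, and all 9 were found. C1q binds antibody-coated targets and starts the classical pathway, C3 is the central protein that is cleaved and deposited by every pathway, and factor B (Cfb) and properdin (Cfp) build and hold the alternative pathway convertase that amplifies it. C3ar1 and C5ar1 encode the receptors for the peptides C3a and C5a released on the way, and Cd55 encodes decay-accelerating factor, a membrane regulator that takes convertases apart. Most circulating complement is made by liver, while C1q and properdin are known products of myeloid cells, so monocytes are both a local source and a responder.

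The 9 libraries came from CD11b+ monocytes sorted from peripheral blood of C57BL/6 mice aged 8 months, and every mouse, controls included, carried Yaa, a Y chromosome with a translocated X segment that holds Tlr7. The Gr-1+ libraries were 2 labelled null (Fcgr2-/-), 1 labelled CEBPaCre (CEBPaCre;Fcgr2 fl/fl) and 1 labelled CD19Cre (CD19Cre;Fcgr2 fl/fl). The Gr-1- libraries were 1 each labelled null, CEBPaCre, CD19Cre, CD11cCre (CD11cCre;Fcgr2 fl/fl) and floxed (Fcgr2 fl/fl without Cre). The gene removed, Fcgr2 in the labels, appears under the symbol Fcgr2b; its product CD32 is an inhibitory receptor for IgG. CEBPaCre is driven from a myeloid gene and CD19Cre from a B cell gene. CD11cCre is driven from the dendritic cell gene Itgax, which was also expressed in every Gr-1- library here. Where each Cre had cut in these sorted cells is not given. Whether libraries came from separate or pooled animals is also not given, so every p measures the spread between these libraries, part of which may be technical.

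Fcgr2b stood at 83.0 to 200.7 FPKM (sequenced fragments scaled by transcript length and by the library's total) in the 5 null and CEBPaCre libraries, and at 74.9 to 195 FPKM in the 3 CD19Cre and floxed libraries. These ranges overlapped, so its RNA did not separate the genotype labels, and which part of the gene was removed is not given. The gate was visible in the RNA: summed over 8 classical monocyte genes such as Ly6c2 and Ccr2, the level was 3914 to 8678 FPKM in Gr-1+ libraries and 97.7 to 284 FPKM in Gr-1- libraries, and over 8 nonclassical genes such as Nr4a1 and Treml4 it was 448 to 667 FPKM in Gr-1+ libraries and 2069 to 3428 FPKM in Gr-1- libraries. Neutrophil genes (12 of 13 listed in the files, none under 1 FPKM everywhere) summed to 654 to 2059 FPKM in Gr-1+ libraries and 69.9 to 156 FPKM in Gr-1- libraries. In Gr-1+ libraries S100a8 (380 to 1423 FPKM) and S100a9 (148 to 413 FPKM) made up most of that sum. Csf3r, Cxcr2 and Retnlg overlapped between the subsets, while the other listed neutrophil genes were higher in every Gr-1+ library. Gr-1 antibody is known to bind the neutrophil protein Ly6G as well as Ly6C. Natural killer cell genes (6 of 6) summed to 0.546 to 1.13 FPKM in Gr-1+ libraries and 18.1 to 279 FPKM in Gr-1- libraries. The part of these other cells in the differences described here was not tested, and in sorted bulk RNA fewer expressing cells cannot be told apart from less RNA per cell. Genes at or above 1 FPKM numbered 9783 to 10258 per library. The read depth is unknown. The 2 CD19Cre libraries had the lowest share of FPKM in ribosomal protein genes, 1.95% (Gr-1+) and 2.25% (Gr-1-), against 3.59 to 7.54% in the other 7.

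Of the 9 genes, 3 were higher in Gr-1+ monocytes (C3, Cfp and C3ar1), 5 did not pass the test (the C1q genes, Cfb and C5ar1), and Cd55 lay below the expression filter. The test was limma on log2(FPKM + 1) over the 10436 genes that averaged 1 FPKM or more, called at a Benjamini-Hochberg adjusted p of at most 0.05. Over all genes tested 14.8% were called, 8.84% higher in Gr-1+ libraries and 5.95% lower. The median log2 difference was 0.65 over the 8 complement genes tested, beside 0.09 over all genes tested. With genotype as a block the median was -0.13 over the same 8 genes (3 positive, 5 negative), beside 0.07 over all genes, so it had no stable sign. With any 1 library left out, 1 or 2 of the 9 were called, C3ar1 each time, and it was the only one without Gr-1+ CEBPaCre or without Gr-1- floxed. In Gr-1+ libraries the mean levels ran, from the top, C3, Cfp, C5ar1, Cfb, C1qb, C1qc, C3ar1, C1qa and Cd55. In Gr-1- libraries C5ar1 came first, followed by C3, Cfp, Cfb, C1qb, C1qc, C1qa, Cd55 and C3ar1. Several neighbours in these orders lay within their spread: Cfp passed C3 in 1 of 4 Gr-1+ libraries, and C5ar1 exceeded C3 in 3 of 5 Gr-1- libraries. Cfb was above C1qb in all 9 libraries.

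**Figure D1:**
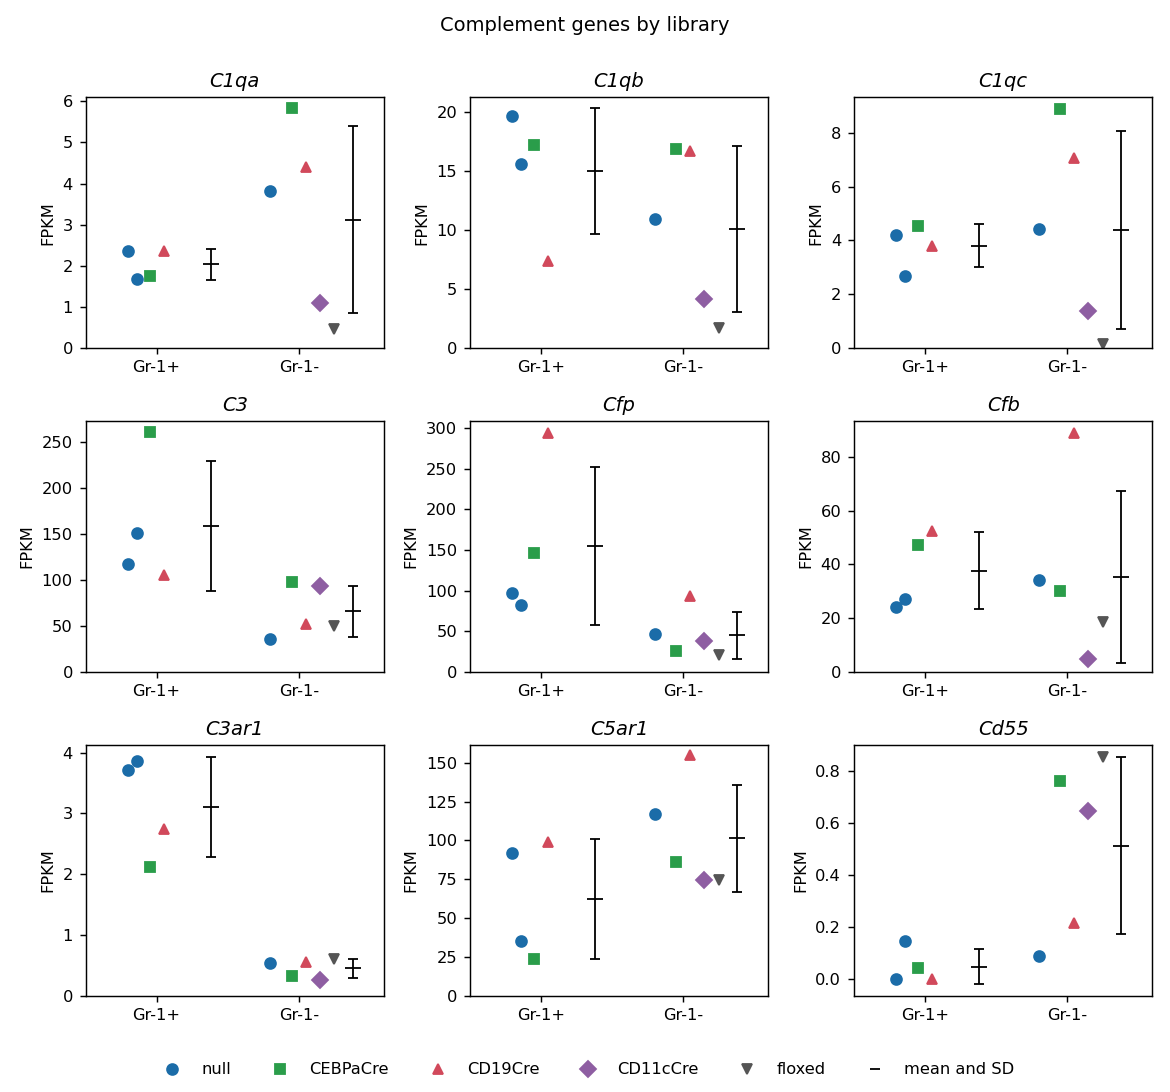
Level of each of the 9 complement genes in FPKM, 1 panel per gene, with a point for each library, the Gr-1+ libraries left of the Gr-1- libraries, and the mean with its SD beside them. The groups do not overlap for C3 and C3ar1, while Cfp shares a range at 82.2 FPKM (Gr-1+) and 92.9 FPKM (Gr-1-).

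C3ar1 separated the subsets most clearly among these 9 genes. It encodes the G protein-coupled receptor for C3a and stood at 3.71 and 3.86 FPKM in the null, 2.11 FPKM in the CEBPaCre and 2.74 FPKM in the CD19Cre Gr-1+ libraries. In Gr-1- libraries it stood at 0.547 FPKM (null), 0.327 FPKM (CEBPaCre), 0.558 FPKM (CD19Cre), 0.252 FPKM (CD11cCre) and 0.598 FPKM (floxed). Every Gr-1+ library thus lay above every Gr-1- library, as it did for 10.2% of all genes tested, while 6.26% lay wholly below. C3ar1 averaged 3.11 ± 0.828 FPKM in Gr-1+ libraries (SD, n = 4) and 0.456 ± 0.156 FPKM in Gr-1- libraries (SD, n = 5). The log2 difference was 1.48 ± 0.19 (SE; 95% interval 1.06 to 1.90), 2.79-fold on the FPKM + 1 scale, with a limma adjusted p of 3.61e-04. That scale understates the change of a gene this low, which passed the filter through its Gr-1+ libraries: with a pseudocount of 0.1 in place of 1 the log2 difference was 2.54. Within genotypes the log2 difference was 1.63 in null, 1.23 in CEBPaCre and 1.26 in CD19Cre libraries.

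The promoter of C3ar1 is shown because its gene had the smallest adjusted p of the 9. The stretch runs from 250 bases before to 50 bases after the RefSeq start site, at chr6:122856108-122856407 on the minus strand of GRCm38.p6, printed 5′ to 3′ along the gene with the letters of an AP-1 motif in capitals.
C3ar1: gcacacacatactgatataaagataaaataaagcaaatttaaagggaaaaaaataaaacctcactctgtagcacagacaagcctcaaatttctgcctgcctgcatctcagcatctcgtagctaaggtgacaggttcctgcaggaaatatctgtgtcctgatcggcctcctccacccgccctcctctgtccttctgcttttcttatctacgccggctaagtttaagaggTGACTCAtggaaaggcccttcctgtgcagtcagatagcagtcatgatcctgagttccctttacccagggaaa
TGACTCA begins 22 bases before the start site and fits the motif TGANTCA, which is its own reverse complement as written and which 7.81% of 32851 RefSeq mouse promoters of this length hold.

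C5ar1, the receptor for C5a, ran the other way without passing the test. It was at 92.0 and 35.0 FPKM in null, 24.0 FPKM in CEBPaCre and 99.3 FPKM in CD19Cre Gr-1+ libraries. In Gr-1- libraries it was at 117 FPKM (null), 86.2 FPKM (CEBPaCre), 155 FPKM (CD19Cre), 74.4 FPKM (CD11cCre) and 74.5 FPKM (floxed). The 2 null Gr-1+ libraries differed 2.63-fold between themselves, and the groups overlapped. C5ar1 averaged 62.5 ± 38.6 FPKM in Gr-1+ libraries (SD, n = 4) and 101 ± 34.5 FPKM in Gr-1- libraries (SD, n = 5), a log2 difference of -0.87 ± 0.42 (SE; 95% interval -1.80 to 0.06; limma adjusted p = 0.219). Within genotypes it was -1.03 in null, -1.80 in CEBPaCre and -0.63 in CD19Cre libraries, so the sign was negative in all 3 genotypes that had both subsets. C3ar1 and C5ar1 thus had opposite signs in each of these genotypes, and whether their differences are unequal was not tested.

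Among the complement genes named at the start, C3 had the highest mean level in Gr-1+ monocytes. It stood at 118 and 151 FPKM in null, 261 FPKM in CEBPaCre and 105 FPKM in CD19Cre Gr-1+ libraries. In Gr-1- libraries it stood at 36.2 FPKM (null), 97.9 FPKM (CEBPaCre), 52.3 FPKM (CD19Cre), 93.5 FPKM (CD11cCre) and 50.0 FPKM (floxed). All Gr-1+ values lay above all Gr-1- values, but by a narrow margin between 105 and 97.9 FPKM. C3 averaged 159 ± 71.0 FPKM in Gr-1+ libraries (SD, n = 4) and 66.0 ± 27.9 FPKM in Gr-1- libraries (SD, n = 5), 2.40-fold on the FPKM + 1 scale. The log2 difference was 1.26 ± 0.36 (SE; 95% interval 0.48 to 2.04; limma adjusted p = 0.0347). It was 1.85 in null, 1.41 in CEBPaCre and 1.00 in CD19Cre libraries. The call was lost, at adjusted p of 0.0504 to 0.106 and log2 differences of 0.99 to 1.37, when any of 6 libraries was left out: Gr-1+ null 1, Gr-1+ null 2, Gr-1+ CEBPaCre, Gr-1- null, Gr-1- CD19Cre or Gr-1- floxed. It was also lost without the mean filter (limma adjusted p = 0.0615) and without both the CD11cCre and floxed libraries (limma adjusted p = 0.0791). CEBPaCre had the highest C3 in both subsets. Interferon response genes (12 of 12) also summed highest in the CEBPaCre library among the Gr-1+ libraries, at 894 FPKM against 158 to 477 FPKM in the other 3, while in Gr-1- libraries they ran from 82.6 FPKM in null to 293 FPKM in CD11cCre. Their part in the level of C3 was not tested.

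Properdin stabilises the C3 convertase of the alternative pathway, and its gene Cfp was higher in Gr-1+ monocytes. It stood at 96.7 and 82.2 FPKM in null, 146 FPKM in CEBPaCre and 294 FPKM in CD19Cre Gr-1+ libraries. In Gr-1- libraries it stood at 46.9 FPKM (null), 26.0 FPKM (CEBPaCre), 92.9 FPKM (CD19Cre), 37.6 FPKM (CD11cCre) and 20.4 FPKM (floxed). CD19Cre was highest in both subsets, and its Gr-1- library lay above the Gr-1+ null 2 library, so the groups overlapped. Cfp averaged 155 ± 97.0 FPKM in Gr-1+ libraries (SD, n = 4) and 44.8 ± 28.8 FPKM in Gr-1- libraries (SD, n = 5), 3.44-fold on the FPKM + 1 scale. The log2 difference was 1.78 ± 0.46 (SE; 95% interval 0.76 to 2.80; limma adjusted p = 0.0239), with 0.91 in null, 2.44 in CEBPaCre and 1.65 in CD19Cre libraries. The call was lost, at adjusted p of 0.0504 to 0.0635 and log2 differences of 1.41 to 1.77, without any 1 of 5 libraries: Gr-1+ CEBPaCre, Gr-1+ CD19Cre, Gr-1- CEBPaCre, Gr-1- CD11cCre or Gr-1- floxed. Without both the CD11cCre and floxed libraries the limma adjusted p was 0.133.

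The promoters of C3 and Cfp, the 2 secreted components that were higher in Gr-1+ monocytes, are shown with matches to the myeloid motifs searched in capitals. C3 lies at chr17:57228087-57228386 and Cfp at chrX:20931506-20931805, both on the minus strand of GRCm38.p6 and printed 5′ to 3′ along the gene.
C3: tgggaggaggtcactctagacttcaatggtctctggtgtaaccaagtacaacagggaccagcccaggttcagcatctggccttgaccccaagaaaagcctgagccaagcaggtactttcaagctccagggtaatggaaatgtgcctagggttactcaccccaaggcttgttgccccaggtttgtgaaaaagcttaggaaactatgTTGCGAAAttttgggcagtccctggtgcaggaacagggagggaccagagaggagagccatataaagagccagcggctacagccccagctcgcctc
Cfp: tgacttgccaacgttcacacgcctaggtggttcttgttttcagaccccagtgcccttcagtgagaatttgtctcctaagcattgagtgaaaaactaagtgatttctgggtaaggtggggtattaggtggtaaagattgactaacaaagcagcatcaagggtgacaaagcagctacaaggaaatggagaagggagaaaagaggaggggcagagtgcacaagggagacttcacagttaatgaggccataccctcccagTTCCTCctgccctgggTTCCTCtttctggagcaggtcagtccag
In C3, TTGCGAAA begins 45 bases before the start site and fits the C/EBP letters TTGCNNAA, which 10.8% of the same promoters hold on either strand. In Cfp, TTCCTC begins 6 and again 22 bases after the first transcribed base. It is the reverse complement of the PU.1 core letters GAGGAA, which 28.3% of promoters hold on either strand. These matches are common letter runs and say nothing of binding.

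Factor B, the serine protease of the alternative convertase, did not differ by subset beyond its spread. Cfb was at 24.3 and 26.9 FPKM in null, 47.2 FPKM in CEBPaCre and 52.4 FPKM in CD19Cre Gr-1+ libraries. In Gr-1- libraries it was at 34.3 FPKM (null), 30.0 FPKM (CEBPaCre), 88.9 FPKM (CD19Cre), 4.73 FPKM (CD11cCre) and 18.4 FPKM (floxed). The highest and the lowest of all 9 values were both in Gr-1- libraries. Cfb averaged 37.7 ± 14.1 FPKM in Gr-1+ libraries (SD, n = 4) and 35.3 ± 32.1 FPKM in Gr-1- libraries (SD, n = 5), with a log2 difference of 0.52 ± 0.63 (SE; 95% interval -0.87 to 1.91; limma adjusted p = 0.653). The sign turned with genotype as a block (-0.20) and without the CD11cCre and floxed libraries (-0.33), and within genotypes the difference was -0.41 in null, 0.64 in CEBPaCre and -0.75 in CD19Cre libraries. As with Cfp, CD19Cre was highest in both subsets.

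**Figure D2:**
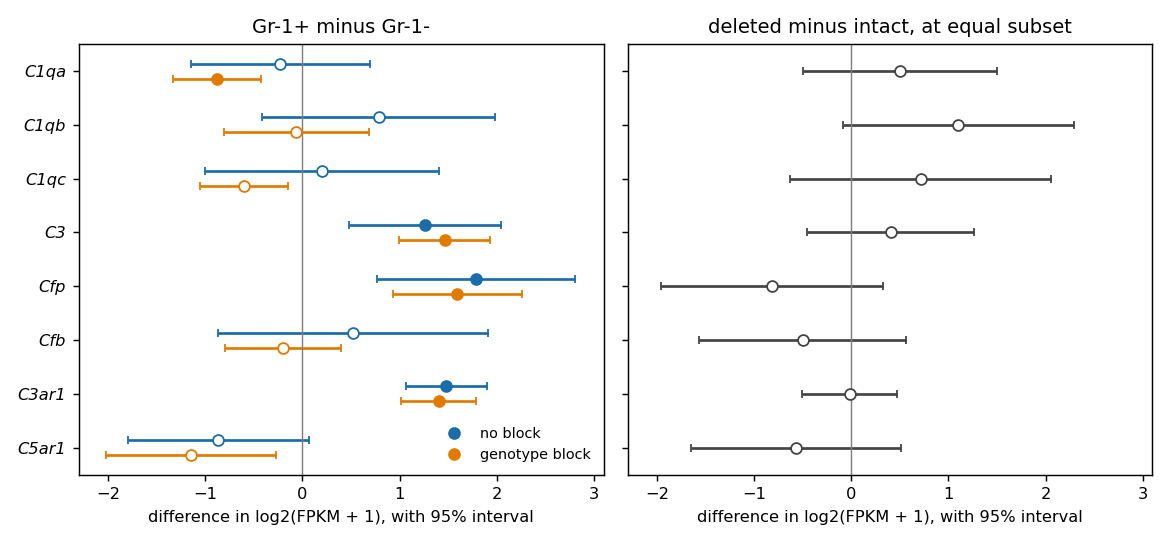
Gr-1+ minus Gr-1- difference of each tested complement gene on the log2(FPKM + 1) scale with its 95% interval, from the fit without and the fit with genotype as a block. C3, Cfp and C3ar1 lie above 0 in both fits, and C1qa moves to -0.88 with the block.

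The 3 chains of C1q assemble into one protein, and their genes C1qb, C1qc and C1qa are neighbours on chromosome 4. C1qa was at 2.35 and 1.68 FPKM in null, 1.74 FPKM in CEBPaCre and 2.35 FPKM in CD19Cre Gr-1+ libraries, and at 3.83 FPKM (null), 5.83 FPKM (CEBPaCre), 4.41 FPKM (CD19Cre), 1.10 FPKM (CD11cCre) and 0.452 FPKM (floxed) in Gr-1- libraries. C1qb was at 19.7 and 15.6 FPKM in null, 17.2 FPKM in CEBPaCre and 7.38 FPKM in CD19Cre Gr-1+ libraries, and at 10.9 FPKM (null), 16.9 FPKM (CEBPaCre), 16.7 FPKM (CD19Cre), 4.14 FPKM (CD11cCre) and 1.70 FPKM (floxed) in Gr-1- libraries. C1qc was at 4.19 and 2.68 FPKM in null, 4.55 FPKM in CEBPaCre and 3.80 FPKM in CD19Cre Gr-1+ libraries, and at 4.43 FPKM (null), 8.89 FPKM (CEBPaCre), 7.07 FPKM (CD19Cre), 1.39 FPKM (CD11cCre) and 0.156 FPKM (floxed) in Gr-1- libraries. In the 5 Gr-1- libraries all 3 genes had the same order, from CEBPaCre at the top through CD19Cre, null and CD11cCre to floxed. No such shared order was seen in the 4 Gr-1+ libraries. The sum of the 3 genes ran from 13.5 to 26.3 FPKM in Gr-1+ libraries and from 2.31 to 31.6 FPKM in Gr-1- libraries, a wider range on both sides.

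None of the C1q genes was called between the subsets. The log2 difference was -0.23 ± 0.42 for C1qa, which averaged 2.03 ± 0.372 FPKM in Gr-1+ libraries (SD, n = 4) and 3.12 ± 2.27 FPKM in Gr-1- libraries (SD, n = 5; limma adjusted p = 0.784). It was 0.78 ± 0.54 for C1qb, which averaged 15.0 ± 5.34 FPKM in Gr-1+ libraries and 10.1 ± 7.02 FPKM in Gr-1- libraries (limma adjusted p = 0.403). It was 0.20 ± 0.55 for C1qc, which averaged 3.81 ± 0.811 FPKM in Gr-1+ libraries and 4.39 ± 3.69 FPKM in Gr-1- libraries (limma adjusted p = 0.855). The Gr-1- libraries labelled CD11cCre and floxed, which have no Gr-1+ library of their genotype, were the 2 lowest for each gene. With genotype as a block, which rests on null, CEBPaCre and CD19Cre alone, C1qa was lower in Gr-1+ libraries by a log2 difference of -0.88 ± 0.19 (limma adjusted p = 0.0174), where 26.0% of all genes were called, 9.97% lower and 16.0% higher. Its within-genotype log2 difference was -0.69 in null, -1.32 in CEBPaCre and -0.69 in CD19Cre libraries. C1qc stayed uncalled in that fit at -0.60 ± 0.19 (limma adjusted p = 0.0601), and C1qb was at -0.06 ± 0.31 (limma adjusted p = 0.901). C3, Cfp and C3ar1 remained higher in it.

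The balance between the chains also varied. The level of C1qb was 8.38, 9.31 and 9.90 times that of C1qa in the null 1, null 2 and CEBPaCre Gr-1+ libraries and 3.14 times in the CD19Cre Gr-1+ library. In the 5 Gr-1- libraries that ratio was 2.86 to 3.80. The ratio of C1qb to C1qc followed this division except in the Gr-1- floxed library. It was 4.70, 5.83 and 3.78 in the null 1, null 2 and CEBPaCre Gr-1+ libraries and 1.94 in the CD19Cre Gr-1+ library. In Gr-1- libraries it was 1.90 to 2.98, apart from 10.9 in floxed, where C1qc stood at 0.156 FPKM. The level of C1qc was 0.344 times that of C1qa in the Gr-1- floxed library and 1.16 to 2.62 times in the other 8, without such a division. These ratios were not tested, and the floxed library had the lowest C1q levels of all. C1q is also abundant in tissue macrophages. Summed macrophage genes (12 of 13) ran from 489 to 1056 FPKM in Gr-1+ libraries and from 634 to 1270 FPKM in Gr-1- libraries. Cd68 alone, at 349 to 990 FPKM, made up most of each sum. Of the rest, 4 genes, Mertk, Timd4, Vsig4 and Marco, were under 1 FPKM in all 9 libraries. Mrc1, Cd163 and Cd5l reached at most 1.41, 1.04 and 1.36 FPKM. Emr1, Hmox1, Spic and Axl reached 158, 157, 43.6 and 14.8 FPKM. The part of macrophages in the C1q levels was not tested.

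**Figure D3:**
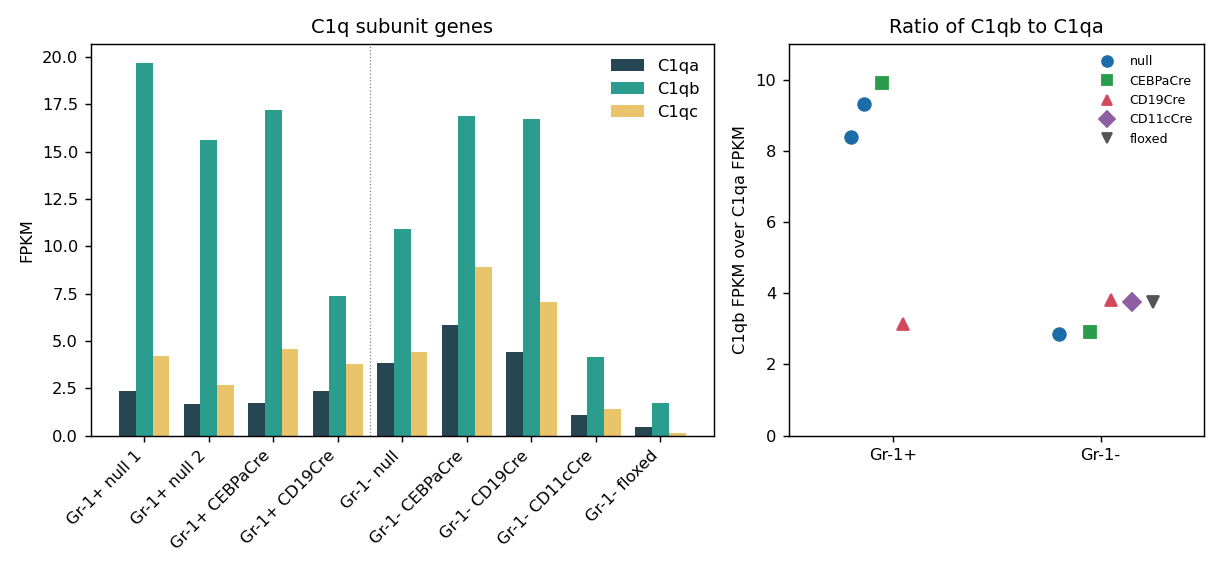
Levels of C1qa, C1qb and C1qc in FPKM by library, Gr-1+ left of Gr-1-, and the ratio of C1qb to C1qa in the same libraries. The ratio is 8.38 to 9.90 in 3 Gr-1+ libraries and 2.86 to 3.80 in the other 6.

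The 2 C1q promoters at hand are shown because their genes kept the same order across the Gr-1- libraries. C1qb lies at chr4:136886151-136886450 and C1qc at chr4:136892865-136893164, both on the minus strand of GRCm38.p6, printed 5′ to 3′ along the gene with the PU.1 core letters in capitals.
C1qb: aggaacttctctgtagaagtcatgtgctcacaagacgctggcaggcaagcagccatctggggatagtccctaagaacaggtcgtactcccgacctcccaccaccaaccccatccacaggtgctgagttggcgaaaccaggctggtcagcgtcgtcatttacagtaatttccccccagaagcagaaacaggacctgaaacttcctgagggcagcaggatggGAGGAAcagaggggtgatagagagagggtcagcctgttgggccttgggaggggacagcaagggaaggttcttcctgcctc
C1qc: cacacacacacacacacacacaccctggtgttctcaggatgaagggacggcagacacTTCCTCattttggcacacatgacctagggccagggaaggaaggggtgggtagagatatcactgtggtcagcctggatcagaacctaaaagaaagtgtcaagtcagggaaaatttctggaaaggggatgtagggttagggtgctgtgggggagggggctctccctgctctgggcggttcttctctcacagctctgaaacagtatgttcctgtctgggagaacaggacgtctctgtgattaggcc
GAGGAA begins 30 bases before the start site of C1qb, and its reverse complement TTCCTC begins 193 bases before that of C1qc. None of the 7 promoters matched by symbol, which include those of C5ar1 and Cd55, held the interferon-stimulated motif (GAAA, 2 bases of any kind, GAAA) on either strand, found in 3.44% of all promoters. C5ar1 and Cd55 held none of the 4 motifs searched, which says only that these letters are not in the window.

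Cd55 was close to the lower end of the measurements. It was listed at 0 in Gr-1+ null 1 and Gr-1+ CD19Cre, at 0.144 FPKM in Gr-1+ null 2 and at 0.0438 FPKM in Gr-1+ CEBPaCre. In Gr-1- libraries it was at 0.0877 FPKM (null), 0.764 FPKM (CEBPaCre), 0.214 FPKM (CD19Cre), 0.648 FPKM (CD11cCre) and 0.855 FPKM (floxed). Only the Gr-1- null library fell within the Gr-1+ range. The 2 libraries with Cd55 at 0 also listed the most genes at 0, 9482 (Gr-1+ null 1) and 10140 (Gr-1+ CD19Cre). The rest listed 5123 to 8827, with the fewest in Gr-1- null, where Cd55 was low as well. The part of this uneven detection in the Cd55 values was not tested. With a mean under 1 FPKM Cd55 did not enter the main test. Without the mean filter its log2 difference was -0.50 ± 0.16 (SE), with a limma adjusted p of 0.0906 over 19017 genes. Reads of Cd55 and of its near copy, listed as Daf2, could not be assigned with certainty.

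Next, other complement genes were counted from a list ordered by role. Of 45 names, 41 were in the files and 13 passed the filter, of which 4 were higher in Gr-1+ libraries, 1 was lower and 8 were not called, beside 8.84% higher and 5.95% lower over all genes tested. Their median log2 difference was 0.30. In the initiation group 3 of 13 genes passed, and all 3 were higher. Fcnb, a ficolin of the lectin pathway, averaged 19.3 ± 15.4 FPKM in Gr-1+ libraries and 0.458 ± 0.476 FPKM in Gr-1- libraries (log2 difference 3.58, limma adjusted p = 1.56e-04). C1ra, a protease that C1q activates, averaged 2.60 ± 0.642 FPKM in Gr-1+ libraries and 0.139 ± 0.0878 FPKM in Gr-1- libraries (1.65, limma adjusted p = 9.5e-05). C4b, the C4 component cleaved in the classical and lectin pathways, averaged 3.63 ± 2.31 FPKM in Gr-1+ libraries and 0.481 ± 0.530 FPKM in Gr-1- libraries (1.57, limma adjusted p = 0.00921). C1ra and C4b have the near copies C1rb and C4a, so their reads are uncertain between the copies. All 3 genes averaged under 1 FPKM in Gr-1- libraries and passed the filter through their Gr-1+ libraries, so their common direction is a description only. With a pseudocount of 0.1 the log2 difference was 5.17 for Fcnb, 3.56 for C1ra and 2.84 for C4b. Fcnb is also known from cells of the neutrophil lineage. Their summed markers, given above and mostly S100a8 and S100a9 in Gr-1+ libraries, were likewise higher in all 4 Gr-1+ libraries. Csf3r, Cxcr2 and Retnlg of that list overlapped between the subsets. The part of such cells in the level of Fcnb was not tested.

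Among regulators 2 of 10 genes passed, Cr1l and Clu, and neither was called. Among receptors, 8 of 10 genes passed. Cd93, first described as a C1q receptor, averaged 20.0 ± 7.90 FPKM in Gr-1+ libraries and 2.36 ± 1.36 FPKM in Gr-1- libraries (2.63, limma adjusted p = 6.26e-04). Itgax, the alpha chain of complement receptor 4, was lower at 2.07 ± 1.38 FPKM in Gr-1+ libraries, against 94.9 ± 116 FPKM in Gr-1- libraries (-4.46, limma adjusted p = 4.2e-04). It reached 300.9 FPKM in the CD11cCre Gr-1- library and stood at 33.8 to 66.0 FPKM in the rest of the Gr-1- libraries. The Cre of that library is driven by the Itgax promoter, and whether this has a part in the value was not tested. Itgb2, the beta chain shared by complement receptors 3 and 4, averaged 399 ± 104 FPKM in Gr-1+ libraries and 751 ± 229 FPKM in Gr-1- libraries (-0.88, limma adjusted p = 0.0674). With genotype as a block Itgb2 was called lower at -0.91 (limma adjusted p = 0.0091), and so was Cr1l, the rodent regulator Crry, at -0.40 (limma adjusted p = 0.0481). Itgam, whose product CD11b is the alpha chain of complement receptor 3 and was the sorting marker, did not pass in either fit.

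Terminal pathway genes were low. None of the 7 listed had a mean of 1 FPKM, and their highest single value was 1.13 FPKM for C8g, which was above 0 in all 9 libraries. Cfd, which encodes the factor B-cleaving protease factor D, was listed at 0 in all 9 libraries. The lectin gene Mbl1 was also listed at 0 throughout.

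**Figure D4:**
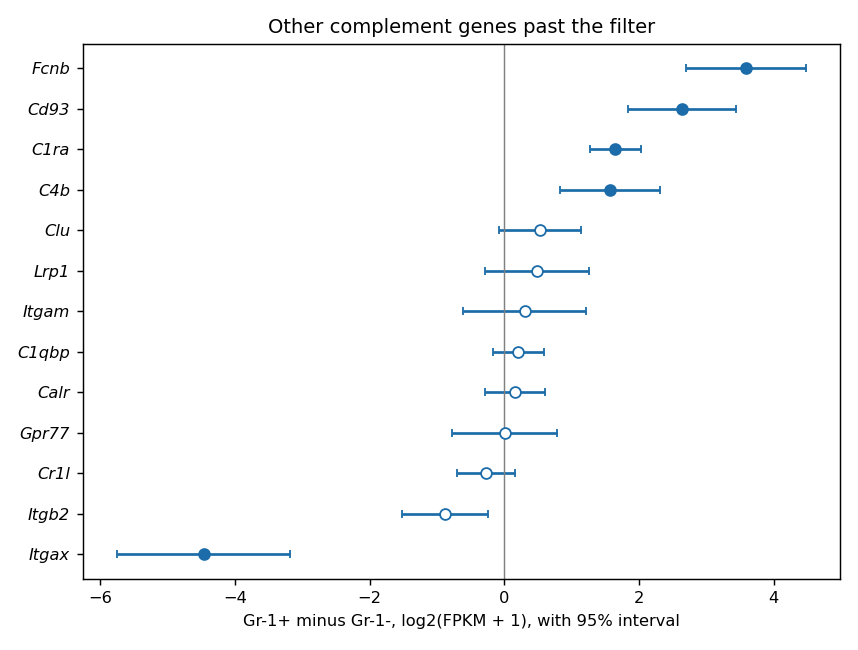
Gr-1+ minus Gr-1- difference on the log2(FPKM + 1) scale with its 95% interval for the 13 other complement genes that passed the filter, with filled points for adjusted p at or under 0.05. Fcnb, Cd93, C1ra and C4b lie above 0, and Itgax is at -4.46.

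The genotype comparison pooled the libraries labelled null or CEBPaCre (called deleted-label, n = 5), with the subset as a covariate. They were set against those labelled CD19Cre or floxed (called intact-label, n = 3). That myeloid cells lose Fcgr2 in deleted-label and keep it in intact-label libraries was inferred from the labelled genotypes and Cre drivers. Fcgr2b itself averaged 137 FPKM in deleted-label libraries and 125 FPKM in intact-label libraries (limma adjusted p = 0.996), so the grouping rests on that inference alone. None of the 8 tested complement genes was called by limma (adjusted p 0.373 to 0.975), and none had an unadjusted p under 0.05. Across all 10429 genes tested 0% were called, while 1470 had an unadjusted p under 0.05. The largest difference was in C1qb, which averaged 16.1 ± 3.24 FPKM in deleted-label libraries and 8.61 ± 7.60 FPKM in intact-label libraries (SD). Its log2 difference was 1.10 ± 0.53 (SE; 95% interval -0.08 to 2.29; limma adjusted p = 0.373). The intact-label values were 7.38 and 16.7 FPKM in CD19Cre and 1.70 FPKM in floxed, so these 2 genotypes lay far apart. Cfp averaged 79.6 ± 46.5 FPKM in deleted-label libraries and 136 ± 142 FPKM in intact-label libraries, a log2 difference of -0.81 ± 0.51 (limma adjusted p = 0.461). C3 averaged 133 ± 83.1 FPKM in deleted-label libraries and 69.2 ± 31.3 FPKM in intact-label libraries (0.41 ± 0.38, limma adjusted p = 0.611). C3ar1 was at -0.02 ± 0.22 (95% interval -0.50 to 0.47; limma adjusted p = 0.975), and C1qa, C1qc, Cfb and C5ar1 were at 0.50, 0.71, -0.50 and -0.57. Without the floxed library, CD19Cre was the only intact-label genotype. Cfp at -1.43 (limma adjusted p = 0.0131) and Cfb at -1.06 (limma adjusted p = 0.0312) were then lower in deleted-label libraries. That fit called 2551 genes, beside 10429 tested in the main fit, so these 2 calls among 8 genes were not particular to complement.

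The interaction of subset and deletion was called for none of the 8 genes (limma adjusted p 0.882 to 0.991; none at an unadjusted p under 0.05), beside 0.0863% of all genes (0.0479% with a positive and 0.0384% with a negative term). Among the 13 other complement genes none was called for deletion, and 4 had an unadjusted p under 0.05. Itgam averaged 171 ± 20.6 FPKM in deleted-label libraries and 65.4 ± 3.34 FPKM in intact-label libraries, with no overlap, a log2 difference of 1.34 ± 0.21 and a limma adjusted p of 0.306. Deleted-label libraries lay above intact-label ones without overlap for 4.34% of all genes and below them for 1.14%. Cfp, Cfb and C5ar1 were each highest in CD19Cre in both subsets, and the CD19Cre libraries, with the lowest ribosomal shares, make up 2 of the 3 intact-label ones. Without them, floxed was the only intact-label library, and the log2 difference turned positive for Cfp (0.75), Cfb (0.77) and C5ar1 (0.43), with none called.

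Finally, the genes whose levels followed each complement gene most closely were listed by Pearson's r of log2(FPKM + 1) over the 9 libraries, among 6639 genes that averaged 5 FPKM or more. These r describe the same 9 libraries, share their subsets and depth, and are the highest of many, so they carry no test. Itpr1 (0.97), Aldh2 (0.97) and Oas2 (0.96) were most like C3, where Oas2 encodes an interferon-induced enzyme. Metap1d, Ms4a8a and Vcan (0.98 each) were most like C3ar1, and Vcan is one of the classical monocyte markers used above. Glo1 (0.99), Evi5 (0.97) and B3gnt1 (0.97) were most like Cfp. Dpep2 (0.96), Pla2g7 (0.95) and Klf7 (0.95) were most like C5ar1, and Mrpl1 (0.93), Prdx1 (0.91) and Aasdhppt (0.88) were most like Cfb. For the mean of the C1q genes the closest were Ercc3 (0.89), Slc6a6 (0.89) and Prmt10 (0.87). For Cd55 they were Tnfrsf12a (0.93), Scnn1a (0.92) and Vamp2 (0.91).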

How the data were processed

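The deposited values are FPKM per gene symbol, which the authors computed library by library with TopHat2 2.0.8, Cufflinks 2.1.1 and the mm9 build, per the submitters' processing notes. RNA of sorted cells was turned into cDNA with a SMART-Seq v4 kit, per the labels' protocols. The annotation and settings are not given in the sources used here. No counts are given, so depth is unknown and no counting interval is printed, and 0 value columns were left out. No 2 libraries held the same values.

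From these values log2(FPKM + 1) was fitted with limma 3.58.1 (lmFit, eBayes with trend) in R 4.3.3. A gene was tested if it averaged 1 FPKM or more across all 9 libraries and was above 0 in 2 or more libraries of the fit. Benjamini-Hochberg adjustment ran over all genes tested, and genes were called at an adjusted p of at most 0.05. The subset fit had no covariate, and the deletion fit had the subset. CD11cCre was left out of the deletion fit because its driver was taken to act in only part of the monocytes. A fold is the ratio of the geometric means on the FPKM + 1 scale, and a log2 difference carries its SE. The code was tested on simulated data. The alternatives tried were other scalings, pseudocounts and filters, library weights, other groupings, a genotype block and each library left out.

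The members and lists were chosen with earlier results of these data known. The rule for names took the 9 members, each other complement gene called in either comparison, Itgam, Itgax, Itgb2 and Fcgr2b, and the 3 genes most like each member. Cr1l, C8g, Cfd, Mbl1 and the promoter motifs were chosen after values were seen. Whether genotype pairs the libraries was checked by correlating deviations from the subset means across genes. The correlation was 0.16 to 0.59 within a genotype and -0.38 to 0.25 between genotypes, so the blocked value is given where it changes a call. Promoters are RefSeq sequences of GRCm38.p6 matched by symbol, found for 7 of the 9 members and not for C1qa and Cfb. No file coordinate was used. One gene of the lists is not reported here.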

Additional observations from a re-analysis of the deposited data

Results flagged for a closer look

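Cd55 in the libraries labelled null or CEBPaCre had 1 value far from the others, 0.764 FPKM in the Gr-1- CEBPaCre library against 0 to 0.144 FPKM in the other 4. Its gap to the nearest value was 0.811 of the range, above the limit that about 1 of 20 groups would pass by chance if all values came from 1 normal group. These 5 values hold both subsets and lie near 0, so that rate need not apply. The limit was applied to each of the 9 genes in Gr-1+, in Gr-1- and in deleted-label libraries, so 1 value past it is not unusual.

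The Gr-1+ minus Gr-1- log2 difference did not have the same sign in every genotype for C1qb and Cfb. For C1qb it was 0.64 in null, 0.026 in CEBPaCre and -1.08 in CD19Cre libraries. For Cfb it was -0.41 in null, 0.64 in CEBPaCre and -0.75 in CD19Cre libraries. With 1 library a genotype and subset, except 2 null Gr-1+ libraries, the difference between genotypes was not tested.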

How the results depend on the processing

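C3ar1 was called higher in Gr-1+ libraries under all 21 alternatives that tested it, C3 under 14 of 22 and Cfp under 16 of 22. At a mean of 1.63 FPKM, C3ar1 did not enter the run limited to means of 5 FPKM or more. Without the CD11cCre and floxed libraries, an alternative added after seeing the data, C3 (adjusted p = 0.0791), Cfp (adjusted p = 0.133) and C4b (adjusted p = 0.0688) were not called, and C1qa was called lower at -0.90. Leaving out 1 library gave 1 or 2 called members for the subsets, 0 to 2 for deletion and 0 to 5 other complement genes for deletion, which numbered 2 with library weights. The same runs without 1 library called 1128 to 1578 of all genes for the subsets and 0 to 2551 for deletion. The main fits tested 10436 and 10429 genes, so these counts moved with those over all genes. Between the subsets 5 other complement genes were called, 8 without the mean filter, 3 at a mean of 5 FPKM or more, and 8 without CD11cCre and floxed with genotype as a block. The cause was not tested. The replicate block of genotype called 2712 genes, beside 1544 without it; over all alternatives the count of all genes called ran from 965 to 2760 for the subsets and from 0 to 2551 for deletion. With it the subset difference changed sign for C1qb (-0.062), C1qc (-0.60) and Cfb (-0.20). Without CD11cCre and floxed it was -0.042, -0.67 and -0.33. With both changes it was again -0.062, -0.60 and -0.20, which was fixed in advance. Genotypes with Gr-1- libraries only carry no weight in a blocked difference, so that run, counted above, is no separate check of it. C1qc was also at -0.25 with library weights. Leaving out 1 library gave -0.55 to 0.012 for C1qa, -0.26 to 0.52 for C1qc and -0.017 to 0.98 for Cfb. For deletion, C3ar1 lay near 0: 0.025 with median ratio scaling, 0.016 as TPM, 0.035 with library weights, 0.37 without the subset covariate and 0.040 with CD11cCre as intact, a grouping that put Cfb at 0.10. Without both CD19Cre libraries Cfp was at 0.75, Cfb at 0.77 and C5ar1 at 0.43. Leaving out 1 library gave -0.14 to 0.065 for C3ar1, -0.069 to 1.03 for C1qa and -0.075 to 1.26 for C1qc. The interaction could not be fitted without the Gr-1+ CD19Cre library. The median of all genes moved from 0.09 to -0.06 as TPM, where C3, Cfp and C3ar1 were still called. Where a group kept 1 library, limma assumes that it varies like the others. With FPKM alone, values near 0, such as those of Cd55, have unknown precision.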
